A study of Mus musculus with 6 samples.

Results

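The 6 genes Pou4f1, Gpr151, Tac2, Chrna3, Chrnb3 and Chrnb4, which are known for the habenula or for nicotinic signalling, were taken by gene symbol from the 23282 entries of the deposited count tables. Each symbol was found once. Of the 5 that passed the filter on low counts, 0 met the study's criteria in the comparison of libraries labelled WAS (water avoidance stress) with those labelled control, against 2.49% of all 15239 genes tested, and for 0 of the 5 did the 2 groups of libraries separate, against 12.2% of all. Gpr151 was too low to be among the genes tested. What stood out was the spread between mice of one label. Pou4f1 ran from 0.108 to 6.85 CPM (counts scaled to a library total of 1000000) over the 6 libraries, while Tac2 stayed between 4.87 and 9.19 CPM.

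The habenula is a small nucleus above the thalamus that carries signals from the forebrain to monoamine centres of the midbrain and is known for its part in aversion, stress and nicotine withdrawal. Its medial part projects to the interpeduncular nucleus and is rich in nicotinic acetylcholine receptors, ion channels of 5 subunits that open when acetylcholine binds. The transcription factor POU4F1 (also called BRN3A) is needed for the identity of habenular neurons, the receptor GPR151 is found on their axons, and neurokinin B, the peptide encoded by Tac2, is made in the medial habenula and also in hypothalamus and amygdala. The subunits encoded by Chrna3 and Chrnb4 form the main receptor of the medial habenula, and CHRNB3 is an accessory subunit that is also made in midbrain dopamine neurons.

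The study exposed male C57BL/6J mice, aged 8 to 10 weeks, to WAS for 1 h, with each mouse on a platform surrounded by water. For the control group the platform and the duration were kept and the water was left out. RNA came from 1 forebrain hemisphere without olfactory bulb and cerebellum, so that the habenula was a very small part of each sample. There were 3 libraries labelled WAS and 3 labelled control, each said to be a biological replicate. Inside the tables, the headings of the libraries labelled WAS start with WC and those of the libraries labelled control start with WS. The groups follow the labels here, and an exchange of labels would turn every direction.

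Totals lay between 9248520 and 10502029 counts, at which 3 counts correspond to 0.286 to 0.324 CPM. Several libraries stood apart in genes of neighbouring tissue. En1, a gene of the midbrain and hindbrain, had 124, 1 and 157 counts in WAS replicates 1, 2 and 3 and 0 in each control library. The summed level of 11 striatum markers was 213 and 455 CPM in WAS replicates 1 and 3 and between 1151 and 2266 CPM in the other libraries. Ttr, the transthyretin gene of choroid plexus, had 364 counts in WAS replicate 1 and 114 in control replicate 2, against 8874 to 12599 elsewhere. Bulk RNA cannot tell apart fewer cells of a type and less RNA per cell.

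To show the genes at the level of sequence, the 250 bases upstream of the RefSeq start (GRCm38.p6) are given for the members with the widest and the narrowest spread between libraries among the 5 that passed the filter on low counts, Pou4f1 and Tac2, and the α3 subunit gene of the Chrna5, Chrna3 and Chrnb4 cluster. Capitals mark matches on either strand to the letters GGGCGG, a GC box, or CAGGTG, an E-box, and no match to the TATA box letters TATAAA was present.
Pou4f1, chr14:104468000-104468249, minus strand: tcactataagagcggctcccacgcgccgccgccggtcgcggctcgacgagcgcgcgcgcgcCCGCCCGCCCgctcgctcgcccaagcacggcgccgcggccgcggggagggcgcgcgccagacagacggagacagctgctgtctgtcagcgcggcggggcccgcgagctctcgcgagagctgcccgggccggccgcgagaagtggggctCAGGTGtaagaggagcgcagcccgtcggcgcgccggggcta
Tac2, chr10:127724228-127724477, plus strand: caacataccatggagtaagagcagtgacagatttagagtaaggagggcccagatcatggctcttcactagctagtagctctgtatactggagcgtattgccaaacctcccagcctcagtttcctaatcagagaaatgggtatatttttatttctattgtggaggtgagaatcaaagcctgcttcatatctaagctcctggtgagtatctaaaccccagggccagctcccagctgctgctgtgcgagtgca
Chrna3, chr9:55026563-55026812, minus strand: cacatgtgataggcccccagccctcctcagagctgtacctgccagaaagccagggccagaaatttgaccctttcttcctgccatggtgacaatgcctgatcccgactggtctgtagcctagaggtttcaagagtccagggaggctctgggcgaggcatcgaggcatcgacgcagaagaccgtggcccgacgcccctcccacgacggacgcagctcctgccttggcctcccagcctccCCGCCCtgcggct
The Pou4f1 window was 78.0% G and C, that of Chrna3 63.2% and that of Tac2 47.2%, with a median of 52.4% over 32851 windows of the same length. The Pou4f1 window held 2 overlapping matches to GGGCGG and 1 to CAGGTG, the Chrna3 window 1 to GGGCGG, and the Tac2 window 0. Of all windows, 32.7% held GGGCGG, 17.2% CAGGTG and 12.4% TATAAA. RefSeq entries were found for 4 of the 6 genes, and that of Chrnb4 is not printed because 235 of its 250 bases lie inside the longer GENCODE gene.

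Pou4f1, at chromosome 14, positions 104461676 to 104467999 on the minus strand (GRCm38, GENCODE M21), had 69, 1 and 34 counts in WAS replicates 1, 2 and 3 and 43, 4 and 14 counts in control replicates 1, 2 and 3. Replicate 2 was the lowest library under either label and replicate 1 the highest, so that the groups overlapped throughout. The levels were 6.85, 0.108 and 3.41 CPM in the libraries labelled WAS and 4.09, 0.385 and 1.40 CPM in those labelled control. WAS replicate 1 exceeded WAS replicate 2 by 63.4-fold, with an exact 95% counting interval of 11 to 2539.6. The group means were 3.46 ± 3.37 CPM (SD, n = 3) for the label WAS and 1.96 ± 1.92 CPM (SD, n = 3) for the label control. The log2 fold change was 0.79 with a 95% interval of -1.14 to 2.72 (by the quasi-likelihood test of edgeR, unadjusted p = 0.389 and adjusted p = 0.916 after Benjamini-Hochberg correction over all genes tested), and the two-sided exact permutation p was 0.7, where 0.1 is the smallest that 3 against 3 libraries allow. The sign turned without WAS replicate 1 (-0.18), and without WAS replicate 2 Pou4f1 met the study's criteria (1.34, unadjusted p = 0.0363 by edgeR). The value was also moved by over 1.5 times without control replicate 1 (1.91) or control replicate 2 (0.30), and was 0.15 with limma on quantile-normalized counts.

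POU4F1 is also made in the red nucleus and the superior colliculus of the midbrain. Gata3, a transcription factor of midbrain GABA neurons, had 160, 0 and 143 counts in WAS replicates 1, 2 and 3, against 26, 9 and 1 among the control libraries. The family member Pou4f2, known from retina and superior colliculus, had 26, 0 and 14 counts under the label WAS and 2, 0 and 0 under the label control, and was too low to be tested. Pou4f1 was high in the same 2 WAS libraries as these genes, and control replicate 1 was the highest control library for Pou4f1, Gata3 and Pou4f2 alike. The profiles differed in other respects. Pou4f1 had more counts in control replicate 1 than in WAS replicate 3 (43 against 34), while Gata3 had fewer (26 against 143). From control replicate 2 to control replicate 3, Pou4f1 rose from 4 to 14 counts and Gata3 fell from 9 to 1. Over a list of 14 markers of superior colliculus and red nucleus, the summed level was 99.7, 24.4 and 87.8 CPM in WAS replicates 1, 2 and 3, against 36.0, 19.3 and 25.4 CPM among the control libraries, again with control replicate 1 highest. Of its 10 genes tested, 7 met the criteria, all higher under the label WAS. The part of this difference in the level of Pou4f1 was not tested.

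Gpr151 encodes an orphan receptor coupled to G proteins and was at the edge of detection, with 4, 2 and 0 counts in WAS replicates 1, 2 and 3 and 8, 0 and 2 counts in control replicates 1, 2 and 3. Control replicate 1 was the highest library, the groups overlapped, and 4 of the 6 libraries had at most 2 counts. The 0 counts of WAS replicate 3 and control replicate 2 have exact 95% Poisson intervals that reach 0.369 and 0.355 CPM, which overlap that of control replicate 1, 0.329 to 1.5 CPM around 0.762 CPM. Gpr151 alone among the 6 genes was under the filter on low counts. In a fit without that filter its log2 fold change was -0.66 with an interval of -3.27 to 1.95 (unadjusted p = 0.601 by edgeR), and the sign turned without control replicate 1 (0.92). A difference between the labels was not detectable at this depth.

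Tac2, at chromosome 10, positions 127724478 to 127731768 on the plus strand, was the steadiest of the 6 genes, with 49, 85 and 65 counts in WAS replicates 1, 2 and 3 and 82, 59 and 79 counts in control replicates 1, 2 and 3. The control values all lay within the range of the libraries labelled WAS. The means were 6.86 ± 2.18 CPM (SD, n = 3) and 7.14 ± 1.26 CPM (SD, n = 3) for the labels WAS and control. The log2 fold change was -0.098, with a 95% interval of -0.68 to 0.49 (by the quasi-likelihood test of edgeR, adjusted p = 0.968). The largest distance, from WAS replicate 1 to WAS replicate 2, was 1.89-fold with a counting interval of 1.31 to 2.74. Unlike Pou4f1, Tac2 was highest in WAS replicate 2 and lowest in WAS replicate 1. Without WAS replicate 1 the log2 fold change was 0.096, and without WAS replicate 2 it was -0.36.

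The tachykinin genes around Tac2 gave 1 call. Of 11 listed genes for tachykinin peptides, receptors and peptide-processing enzymes 9 were tested, 5 with values above 0 and 4 below, with a median log2 fold change of 0.0095 beside 0.00088 for all genes tested. Tacr3, which encodes the receptor of neurokinin B, had 49, 21 and 44 counts in WAS replicates 1, 2 and 3, against 14, 15 and 18 counts among the control libraries. Every library labelled WAS was above every one labelled control, with the higher values in replicates 1 and 3. Tacr3 passed the p and fold thresholds, higher under the label WAS, a direction that rests on the labels and would turn with them, at a log2 fold change of 1.29 (SE, the standard error, 0.38; unadjusted p = 0.00586, adjusted p = 0.539 by edgeR). With WAS replicates 1 and 3 left out, the value was 0.53 (unadjusted p = 0.383 by edgeR), with the single remaining library assumed to vary like the controls, and the call was also lost without WAS replicate 1 and control replicate 2 together (1.05). The genes of the list with the highest counts were Cpe and Pcsk2, enzymes that mature neuropeptides, at log2 fold changes of 0.15 and -0.32 (adjusted p = 0.777 and 0.681 by edgeR). Leaving out WAS replicate 1 or 2 gave 0.086 and 0.22 for Cpe and -0.20 and -0.51 for Pcsk2, whose adjusted p was 0.0119 by edgeR without WAS replicate 2, still under the fold criterion. Tac1, the sister peptide gene, was chosen after its values were seen and had 304, 1427 and 379 counts under the label WAS against 870, 983 and 1130, a pattern in which WAS replicates 1 and 3 were low, as for the striatum markers, among which Tac1 is listed.

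**Figure D1:**
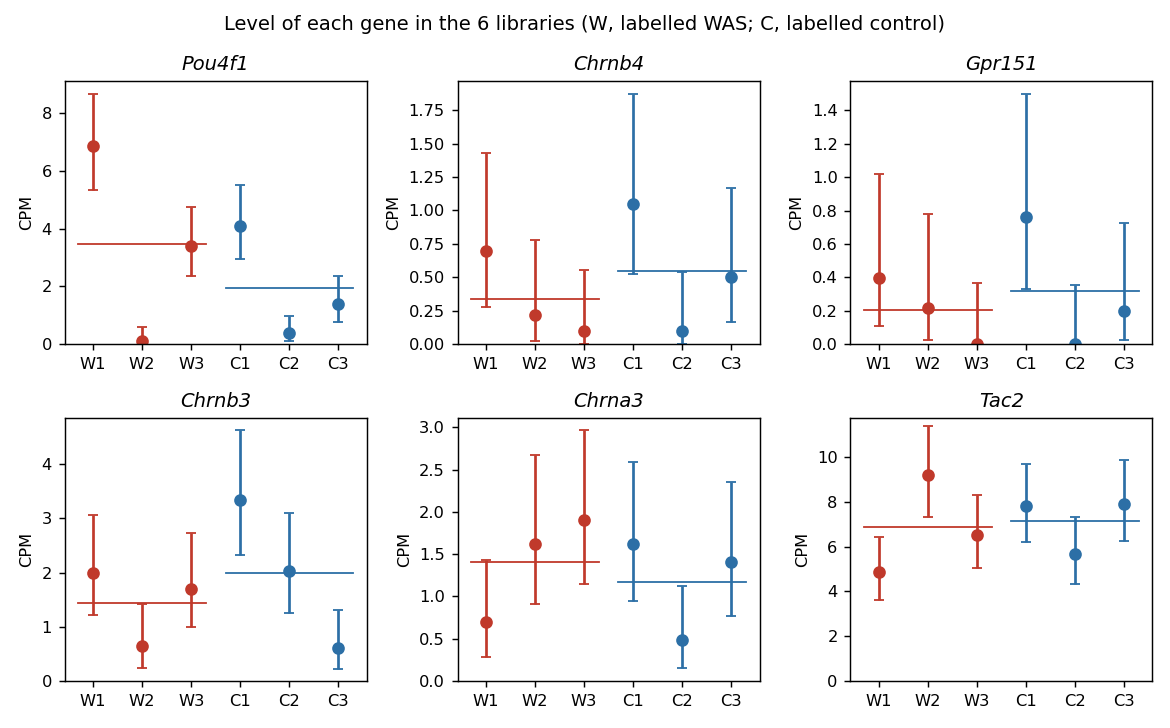
Levels of the 6 genes in CPM (counts scaled to a library total of 1000000, linear axes starting at 0) in the libraries labelled WAS (W1 to W3) and control (C1 to C3). Points are single libraries, bars are exact 95% Poisson intervals that cover counting error only, and horizontal lines are group means; Pou4f1 spans 0.108 to 6.85 CPM and Tac2 only 4.87 to 9.19 CPM.

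Chrnb3, the β3 subunit gene, lies at chromosome 8, positions 27368711 to 27399730 on the plus strand, and had 20, 6 and 17 counts in WAS replicates 1, 2 and 3 and 35, 21 and 6 counts in control replicates 1, 2 and 3. The lowest libraries were WAS replicate 2 and control replicate 3, and the groups overlapped. The means were 1.45 ± 0.705 CPM (SD, n = 3) for the label WAS and 1.99 ± 1.37 CPM (SD, n = 3) for the label control. The log2 fold change was -0.48 with a 95% interval of -1.78 to 0.82 (by the quasi-likelihood test of edgeR, adjusted p = 0.929). It was 0.097 without control replicate 1, which was 5.54-fold above control replicate 3 with a counting interval of 2.31 to 16.1.

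Chrnb4, which encodes the β4 subunit and lies at chromosome 9, positions 55028154 to 55048779 on the minus strand, had 7, 2 and 1 counts in WAS replicates 1, 2 and 3 and 11, 1 and 5 counts in control replicates 1, 2 and 3. As for Gpr151, control replicate 1 was highest and WAS replicate 1 second. The levels were 0.695, 0.216 and 0.10 CPM under the label WAS and 1.05, 0.0963 and 0.501 CPM under the label control. Its log2 fold change was -0.71 with an interval of -2.65 to 1.24 (adjusted p = 0.929 by edgeR), and 0.14 without control replicate 1. Without WAS replicate 1 and control replicate 2, both low in Ttr, it was -2.26 (unadjusted p = 0.0377, adjusted p = 0.975 by edgeR). The noncoding gene Gm47877 lies on the opposite strand within Chrnb4, and the sources used here do not state whether reads were counted by strand.

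Chrna3, which encodes the α3 subunit, lies at chromosome 9, positions 55010111 to 55026562 on the minus strand. It had 7, 15 and 19 counts in WAS replicates 1, 2 and 3 and 17, 5 and 14 counts in control replicates 1, 2 and 3. The lowest libraries were WAS replicate 1 and control replicate 2, and the groups overlapped. The means were 1.41 ± 0.632 CPM (SD, n = 3) for WAS and 1.17 ± 0.604 CPM (SD, n = 3) for control. The log2 fold change was 0.23 with an interval of -1.0 to 1.45 (adjusted p = 0.968 by edgeR), with the sign turned without WAS replicate 3 (-0.058) or control replicate 2 (-0.14). WAS replicate 1, which was second highest for Chrnb4, was second lowest for Chrna3, although the starts of these genes are only 22217 bp apart.

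Of the 5 members that passed the filter, 0 met the study's criteria, which here are a fold change of 1.5 or more in either direction with p under 0.05 before adjustment, against 2.49% of the 15239 genes tested. None of the 5 had groups that did not overlap, against 12.2% of all genes tested. At an unadjusted p under 0.05, 0 of the 5 were found by edgeR, by DESeq2 or by limma, against 7.24% of all genes by edgeR, and 0 had an adjusted p under 0.05. Among all genes, 277 (1.82%) were called higher and 103 (0.676%) lower under the label WAS, or 220 and 193 on quantile-normalized counts with limma. No gene had an adjusted p under 0.05 by edgeR, with 1104 at an unadjusted p under 0.05 and 22 at an adjusted p under 0.05 by DESeq2. The number of members called was 1 in place of 0 without WAS replicate 2, where the gene was Pou4f1.

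**Figure D2:**
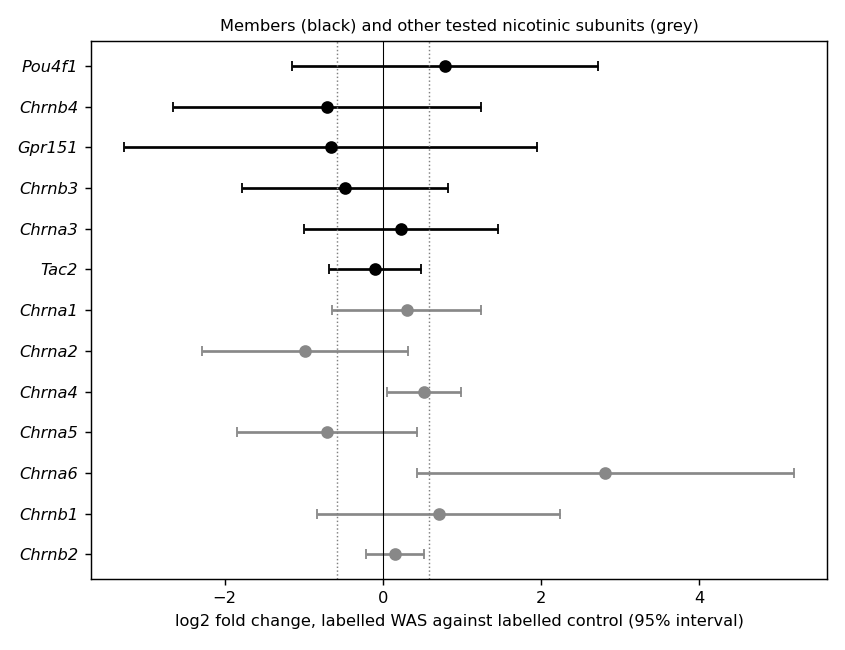
Log2 fold changes of the libraries labelled WAS against those labelled control by edgeR, with 95% intervals, for the 6 members (black) and the 7 other nicotinic subunit genes tested (grey). Dotted lines mark a fold change of 1.5; all 6 intervals in black cross 0, and among the grey ones those of Chrna4 and Chrna6 do not.

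Among the other nicotinic subunits, 7 of 13 listed genes were tested, 5 with values above 0 and 2 below, and 1, Chrna6, met the criteria. The median log2 fold change was 0.30. Chrna6, whose product joins CHRNB3 in receptors of dopamine neurons, lies tail to tail with Chrnb3, with 3482 bp between the ends of the genes. It had 38, 0 and 27 counts in WAS replicates 1, 2 and 3 and 5, 0 and 4 counts in control replicates 1, 2 and 3. The high libraries were WAS replicates 1 and 3, which also held the counts of En1 and of Slc6a3, the dopamine transporter gene, with 107, 0 and 100 counts under the label WAS and 0, 3 and 3 under the label control. The log2 fold change of Chrna6 was 2.81 (SE 1.09, unadjusted p = 0.0249, adjusted p = 0.627 by edgeR), and the call was lost with DESeq2, with limma and without WAS replicate 1 (2.15), WAS replicate 3 (2.62), control replicate 2 (2.24), control replicate 3 (3.10) or WAS replicate 1 and control replicate 2 together (1.58). Within the label WAS, Chrnb3 had the same order as Chrna6, with replicates 1 and 3 above replicate 2, and control replicate 1 was the highest control library for both. Over all 6 libraries, Chrna6 was highest in WAS replicate 1 and Chrnb3 in control replicate 1. The difference between the fold changes of Chrnb3 and Chrna6 was not tested.

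Chrna5, the third gene of the cluster and an accessory subunit, faces Chrna3 tail to tail at 2332 bp and was chosen for its position. It had 8, 6 and 5 counts in WAS replicates 1, 2 and 3, against 8, 13 and 11 among the control libraries, with a log2 fold change of -0.71 (SE 0.52, adjusted p = 0.844 by edgeR). Its highest library, control replicate 2, was the lowest for Chrna3. Chrna4 and Chrnb2, whose products form the main receptor of the forebrain, had 34.1 ± 11.9 and 16.8 ± 2.86 CPM (SD, n = 3) under the label WAS and 23.2 ± 2.26 and 14.8 ± 1.55 CPM (SD, n = 3) under the label control. Chrna4 had an unadjusted p of 0.0312 by edgeR at a log2 fold change of 0.52, under the fold criterion, but 0.22 without WAS replicate 1 and 0.73, which met the criteria, without WAS replicate 2. It did not pass an unadjusted p of 0.05 with limma or without control replicate 1, 2 or 3. Chrnb2, at 0.15, ran from 0.013 without WAS replicate 3 to 0.26 without WAS replicate 2. With both WAS replicate 1 and WAS replicate 3 left out, Chrna4 was at -0.050 and Chrnb2 at -0.099. Chrna7, whose product forms receptors of a single subunit type, was chosen after its values were seen and had at most 3 counts in any library. Whether its RNA was scarce or its reads were missed in the counting was not tested.

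**Figure D3:**
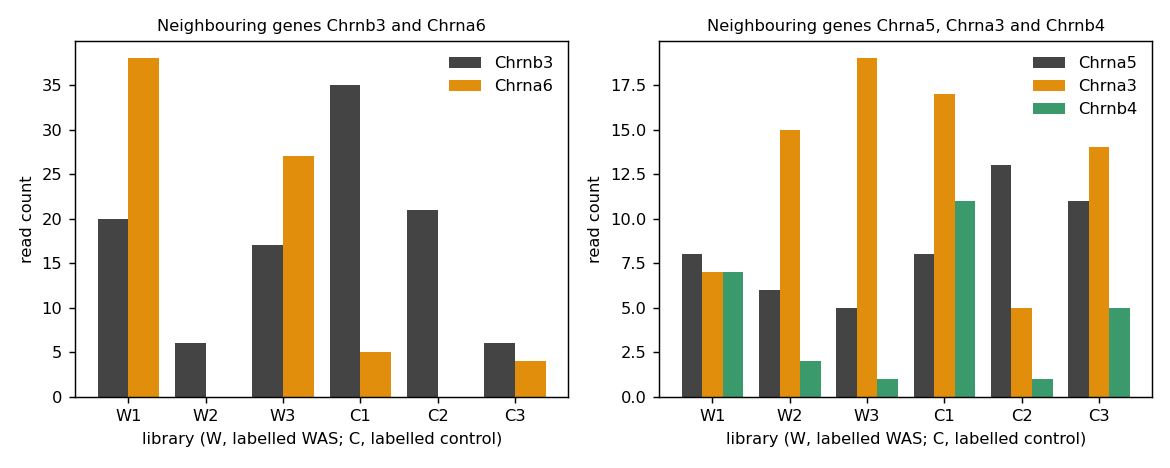
Read counts of neighbouring nicotinic subunit genes in each library (W, labelled WAS; C, labelled control), with bars starting at 0. Chrna6 is high in W1 and W3 with 38 and 27 counts while Chrnb3 peaks in C1 with 35, and Chrna5, Chrna3 and Chrnb4 peak in C2, W3 and C1.

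Genes that handle nicotinic receptors or acetylcholine gave 0 calls. Of 9 symbols for receptor chaperones and lynx proteins, 8 were in the tables and tested, with 5 values above 0, 3 below and a median of 0.14. The highest counts were those of Tmem35, which encodes the chaperone NACHO, at a log2 fold change of 0.27, and of Ly6e at -0.17 (adjusted p = 0.585 and 0.697 by edgeR), both with groups that did not overlap. Without WAS replicate 2, Tmem35 was at 0.35 with an adjusted p of 0.0376 by edgeR, under the fold criterion. All 7 genes for the synthesis, release and breakdown of acetylcholine were tested, with 4 values above 0, 3 below and a median of 0.27. Chat, which encodes the enzyme that makes acetylcholine in medial habenula, basal forebrain and striatum, had 10, 182 and 66 counts in WAS replicates 1, 2 and 3, against 116, 92 and 230 among the control libraries. Within the label WAS its order was the reverse of that of Pou4f1, its groups overlapped, and it met the criteria, lower under the label WAS, only without WAS replicate 2 (-1.95) among the settings that left out 1 library. Ache, which encodes acetylcholinesterase, was at 0.27 (adjusted p = 0.811 by edgeR), with 0.13 without control replicate 1 and 0.46 without control replicate 3.

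Summed over the 6 genes, the level was 15.5, 12.0 and 13.6 CPM in WAS replicates 1, 2 and 3 and 18.7, 8.67 and 12.0 CPM in control replicates 1, 2 and 3. The means were 13.7 ± 1.75 CPM (SD, n = 3) and 13.1 ± 5.09 CPM (SD, n = 3). Tac2 made up between 31.4% of these counts, in WAS replicate 1, and 76.6%, in WAS replicate 2. Without Tac2 the sums were 10.6, 2.81 and 7.11 CPM under the label WAS and 10.9, 2.99 and 4.11 CPM under the label control, so that the highest and lowest libraries of either label were nearly equal. In control replicate 1 all 6 genes were above their own median over the libraries, in WAS replicate 1 there were 4, and in control replicate 2 only 1, Chrnb3. The 2 genes with the fewest counts, Gpr151 and Chrnb4, together had 11, 4 and 1 counts under the label WAS and 19, 1 and 7 under the label control.

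Of the other genes known from the medial habenula, all 20 listed were tested, with 11 values above 0 and 9 below, a median log2 fold change of 0.020 and 3 calls, all higher under the label WAS. These were Calb2, which encodes the calcium-binding protein calretinin (1.44, SE 0.42), the transcription factor Nr4a2 (0.65, SE 0.20) and the potassium channel gene Kcng4 (0.95, SE 0.38), as log2 fold changes with unadjusted p of 0.00531, 0.00801 and 0.0272 by edgeR. Calb2 had 601, 173 and 498 counts in WAS replicates 1, 2 and 3, against 149, 79 and 242 among the control libraries. Nr4a2 had 2901, 1338 and 2797 counts, against 1521, 1592 and 1450. Which tissue these reads came from was not tested. Both genes were again high in WAS replicates 1 and 3. With these 2 libraries left out, the values of Calb2, Nr4a2 and Kcng4 were 0.25, -0.071 and 0.67, and none was called. Calb2 and Nr4a2 were lost with limma (1.41 and 0.60), and all 3 without WAS replicate 1 and control replicate 2 together (0.80, 0.51 and 0.87). Nr4a2 was also lost without WAS replicate 1 (0.48) or WAS replicate 3 (0.51), and Kcng4 when replicate 1 (0.81) or 3 (0.96) of the label WAS or replicate 3 of the label control (0.74) was left out. By edgeR, the adjusted p of Calb2 was 0.0156 with the replicate block, and without WAS replicate 2 the adjusted p was 0.00255 for Calb2 (1.80) and 3.6e-05 for Nr4a2 (0.91). Cck, a peptide gene also made throughout the cortex, had the highest counts of the list and was at -0.27 (adjusted p = 0.585 by edgeR). Gng8, a G protein subunit gene of the medial habenula chosen after its values were seen, had 12, 6 and 12 counts under the label WAS and 22, 10 and 11 under the label control, with control replicate 1 highest, as for Gpr151, Chrnb3 and Chrnb4.

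For the lateral habenula, 9 of 10 listed genes were tested, with 7 values above 0 and 2 below and a median of 0.19. The 1 call was Slc17a6, the vesicular glutamate transporter gene of habenula, thalamus and midbrain, with 1710, 284 and 1339 counts in WAS replicates 1, 2 and 3, against 402, 304 and 273 among the control libraries (log2 fold change 1.78, SE 0.44, unadjusted p = 0.00194 by edgeR), a call that was lost with limma. Without WAS replicates 1 and 3 it was -0.083. The genes of the list with the highest counts, Gap43 and Pcdh10, were at 0.089 and -0.16. Leaving out 1 library gave values from -0.077 without control replicate 1 to 0.24 without control replicate 3 for Gap43, and from -0.28 without WAS replicate 2 to -0.094 without WAS replicate 3 for Pcdh10. Among 5 POU class 4 genes and partner factors, 3 were tested, with 2 values above 0, 1 below, a median of 0.11 and 0 calls. Hipk2 and Ebf1, with the highest counts, were at 0.11 and 0.43 (adjusted p = 0.922 and 0.539 by edgeR).

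Markers of tissue around the habenula differed between libraries and, in part, between the labels. Of 15 thalamus markers tested, 6 were called higher under the label WAS, and the summed level was 828 to 1267 CPM in libraries labelled WAS and 770 to 827 CPM in those labelled control. Of 9 dopamine neuron markers tested, of 13 listed, 7 were called higher, with sums of 55.0 to 169 and 44.0 to 51.5 CPM, and Lmx1b was at 0 in every library. The 14 choroid plexus markers gave 0 calls, with sums from 334 to 1744 CPM under the label WAS and 311 to 1825 CPM under the label control. Of the pineal markers 4 of 10 were tested with 0 calls, with sums of 13.8 to 22.9 and 9.15 to 16.2 CPM. The enzyme gene Asmt was at 0 in every library. Aanat had 2, 0 and 2 counts under the label WAS and 2, 5 and 1 under the label control. The zeros of Asmt and Lmx1b do not show that a tissue was absent. Drd2, a striatum marker, had at most 1 count in any library, where Drd1 had 350 to 3380. The striatum markers gave 0 calls among 9 tested and the ependyma markers 0 among 10, with sums of 74.4 to 90.9 and 71.4 to 92.2 CPM for the latter. Cortex markers gave 2 calls among 11, both lower, and markers of amygdala and bed nucleus 2 among 11, both higher, with sums of 2735 to 3257 against 3367 to 3934 CPM and of 611 to 781 against 469 to 664 CPM. Arcuate and preoptic peptide genes gave 0 calls among 7 tested of 11, with sums of 122 to 209.7 and 171 to 196 CPM. Most of these sums was Npy, at means of 135 and 171 CPM, so that they say little about the other genes of the list. The part of these tissue differences in the levels of the 6 genes was not tested.

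**Figure D4:**
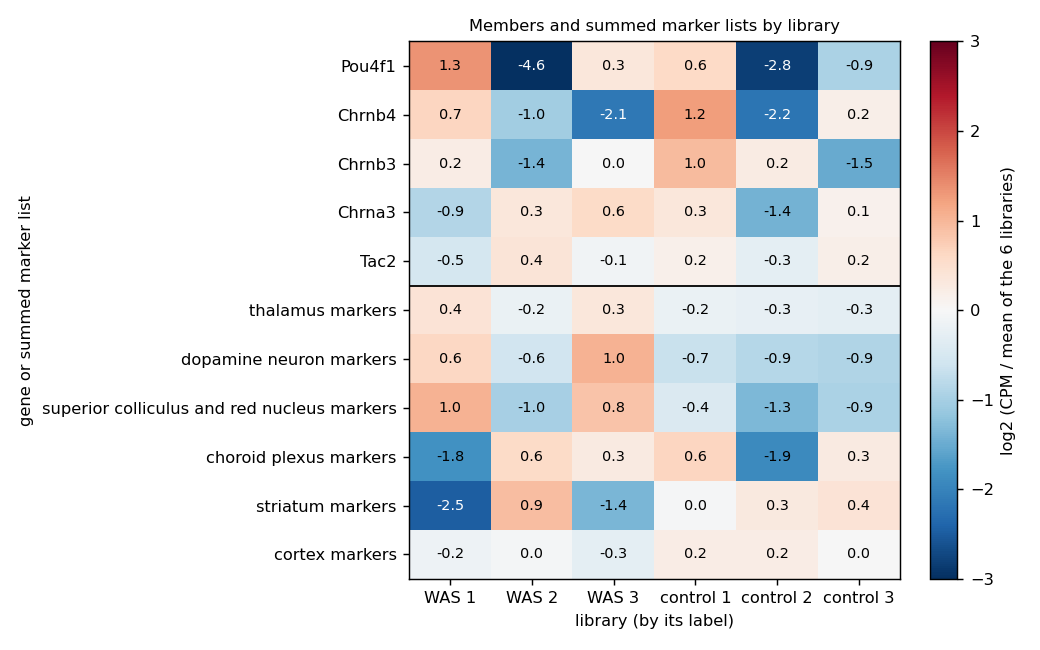
Level of each member with counts in every library, and of summed marker lists, as log2 of the CPM over the mean of the 6 libraries, by library; the colour scale ends at 3 in either direction and the printed numbers do not. Pou4f1 falls 4.6 below its mean in WAS replicate 2, the midbrain lists are highest in WAS replicates 1 and 3, and the choroid plexus list is lowest in WAS replicate 1 and control replicate 2.

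The spread of Pou4f1 between libraries of one label was among the widest in the data. Its biological coefficient of variation, the part of the spread beyond counting error as estimated by edgeR, was 76.6%, against 27.7% for the trend over genes at its level. Of the 15239 genes tested, 29 (0.190%) were at or above this value. The order of the libraries was the same under either label, with replicate 1 highest and replicate 2 lowest. The coefficient was 52.7% for Chrnb4, 45.1% for Chrnb3 and 38.4% for Chrna3, against trends of 38.5%, 32.3% and 34.2% at their levels. For Tac2 it was 21.0%, beside a trend of 19.9%.

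**Figure D5:**
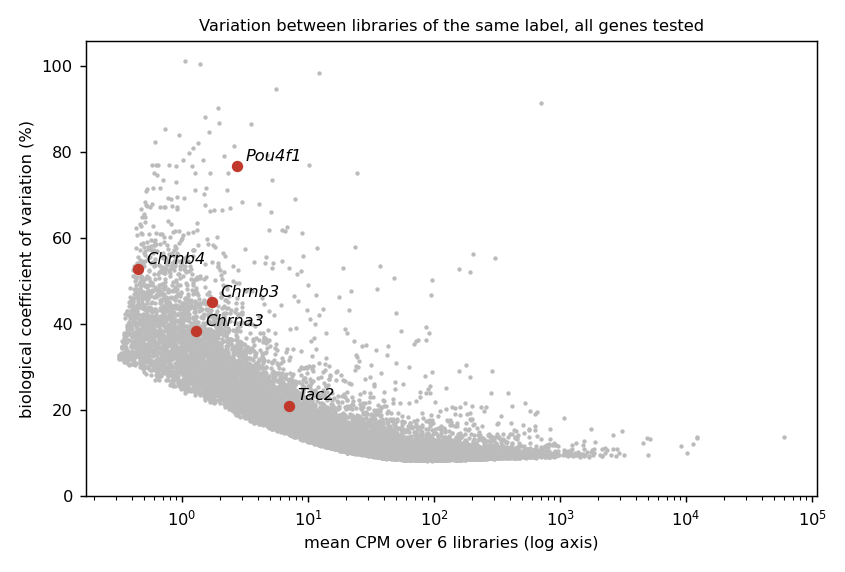
Biological coefficient of variation of each of the 15239 genes tested (grey, in percent) against its mean level over the 6 libraries in CPM (log axis), with the 5 tested members in red. Pou4f1 stands at 76.6%, against a trend of 27.7% at its level, and Tac2 at 21.0%, against 19.9%.

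The genes whose profile over the 6 libraries was most like each member were found by the root mean square difference of log2(CPM + 1) values, each centred on its own mean. For Pou4f1 the nearest were Lefty1 (0.31), with 48, 1 and 18 counts under the label WAS and 17, 1 and 4 under the label control, then 2310002F09Rik (0.36) and Tshz2 (0.39), against a median of 1.03 for all genes tested. Like Pou4f1, Lefty1 was lowest in replicate 2 of either label. For Tac2 the nearest was Lgals1 (0.051), with 52, 89 and 65 counts under the label WAS and 84, 67 and 86 under the label control. For Chrna3 it was Gpx8 (0.060), for Chrnb3 Chrd (0.14) and for Chrnb4 Masp2 (0.073). Among the members themselves, Chrna3 and Tac2 were closest (0.24), and Pou4f1 was between 0.84 and 1.18 from each of the other 4 tested. The profile averaged over the 5 tested members was nearest to those of 1700071K01Rik, Prdm6, Impdh2, Vwa8, Gimap9, Arl6ip6, Zfp41 and Kirrel2, at 0.087 to 0.12.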

How the data were processed

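RNA of 1 forebrain hemisphere per mouse was read by QuantSeq 3′ mRNA-Seq, which reads the end of polyadenylated transcripts in single-end reads of 75 bp. The authors aligned reads with Bowtie2 and deposited raw read counts per gene symbol, from unique and multiple alignments by bedtools coverage. The labels name build mm10; versions, annotation and strand setting are not given in the sources used here. The authors' quantile normalization is not in these counts. As each transcript is read at its end, counts were not divided by length. Levels of different genes were not tested against each other. Sums over genes, shares of a sum and the choice of genes by highest counts are descriptive and weigh each gene by its counts.

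Levels are CPM, counts scaled to a library total of 1000000. The fold changes and p-values come from edgeR 4.0.16 (quasi-likelihood test, TMM factors, R 4.3.3) on 15239 genes with a mean log2(quantile-normalized count + 1) of at least 2, with group as the only term and Benjamini-Hochberg adjustment over all of them. A gene met the study's criteria at a fold change of 1.5 or more with p under 0.05 before adjustment. Intervals are at 95%. Alternatives used limma 3.58.1 and DESeq2 1.42.0, other scalings and filters, a replicate block, and left-out libraries. The code was tested on simulated data. The members, gene lists and tests were chosen with earlier results of these data known. Named from each list were genes that met the criteria and the 2 with the highest counts. The marker lists are given by counts of calls and summed levels. En1, Ttr, Gata3, Pou4f2 and Slc6a3 were chosen after their values were seen, and other such genes are marked in the text. Gene positions are from GENCODE M21 (GRCm38). The last 500 bases of the longest transcript of each member shared no stretch of 50 bases with another gene. Reads carry no molecular identifiers, so intervals and floors of 3 counts cover counting error only. The labels call the replicates biological and say no more, so p-values measure the spread between these libraries. No 2 libraries of a group agreed within sampling noise, with a chi-square per degree of freedom of at least 4.87.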

Additional observations from a re-analysis of the deposited data

How the results depend on the processing

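Over the alternatives, 0 members had an adjusted p under 0.05, and with total-count scaling, DESeq2, limma on quantile-normalized counts, Rn45s left out, other filters or the replicate block, 0 met the study's criteria and no member changed sign. Gpr151 had no value in the fits with a filter and was fitted without one, and Chrnb4 none with a mean of at least 1 CPM. Leaving out single libraries, the members called ran from 0 to 1, and those with an unadjusted p under 0.05 from 0 to 1. The log2 fold changes then ran from -0.18 to 1.91 for Pou4f1, -1.55 to 0.92 for Gpr151, -0.36 to 0.096 for Tac2, -0.14 to 0.55 for Chrna3, -0.90 to 0.097 for Chrnb3, -1.77 to 0.14 for Chrnb4, -0.038 to 0.22 for Hipk2 and -0.077 to 0.24 for Gap43. The sign turned without WAS replicate 1 for Pou4f1 (-0.18), Tac2 (0.096) and Hipk2 (-0.038), without WAS replicate 3 (-0.058) or control replicate 2 (-0.14) for Chrna3, and without control replicate 1 for Gpr151 (0.92), Chrnb3 (0.097), Chrnb4 (0.14) and Gap43 (-0.077). Pou4f1 met the criteria without WAS replicate 2 (1.34). Another pair of settings was chosen after seeing the data. Without WAS replicates 1 and 3, 1 member was called, Pou4f1, at -4.07, which rests on the 1 count of WAS replicate 2, and 1 had an unadjusted p under 0.05. Other values that turned there were 0.32 for Tac2, -0.050 for Chrna4, -4.62 for Chrna6, -0.099 for Chrnb2, 0.42 for Chat, -0.024 for Cpe, -0.13 for Hipk2, -0.071 for Nr4a2, -0.066 for Gap43, 0.056 for Pcdh10 and -0.083 for Slc17a6. Without WAS replicate 1 and control replicate 2, 1 member was called, Chrnb4 (-2.26), 1 had an unadjusted p under 0.05, and Pou4f1 (-0.66) and Hipk2 (-0.056) turned sign. The cause was not tested.

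Over all genes, those meeting the criteria ran from 261 to 831 when 1 library was left out, the highest without WAS replicate 2, those higher under the label WAS from 180 to 458, those lower from 81 to 373, and those at an adjusted p under 0.05 from 0 to 484. The 484, without WAS replicate 2, included Slc17a6, Nr4a2, Calb2, Chrna6, Pcsk2, Chrna4, Tacr3 and Tmem35. By adjusted p, 22 genes were called by DESeq2, 49 with the replicate block and 1 without WAS replicates 1 and 3. Without WAS replicate 1 and control replicate 2, 161 were called higher. Those lower under the label WAS numbered 193 with limma and 170 without WAS replicates 1 and 3. The numbers of the replicates were not taken as pairs in the main fit, because the labels do not say that equal numbers belong together. The correlation across genes of the deviations of same-numbered libraries was 0.098, 0.13 and 0.11 for replicates 1, 2 and 3. For libraries of unlike number it ran from -0.10 to -0.0098, so that each library was closest to its own number. With the replicate block, 417 genes met the criteria and Pou4f1 was at 0.69 (SE 0.45, against 0.88 without the block, unadjusted p = 0.149 by edgeR). Gpr151 and Chrnb4 had only 16 and 27 counts in all. For each of the 6 members the sign turned when some single library was left out, so this was not particular to the genes with few counts.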
